A study of Rattus norvegicus with 20 samples.

Results

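Cardiac potassium channels were followed through 10 genes chosen by name: Kcnd2, Kcnd3, Kcnip2, Kcnh2, Kcnq1, Kcne1, Kcna5, Kcnj2, Kcnj11 and Kcnk3. Every probe set (a group of short probes read as 1 value) whose platform annotation held 1 of these symbols and no other was taken. This gave 19 probe sets of the 31042 tested, and 10 of the 14217 genes measured. RNA of the right ventricle came from male Sprague Dawley rats of about 350 g. In the pulmonary embolism (PE) groups, polystyrene microspheres of 25 micron, 2000000 per 100 g of body weight, had been injected into the right jugular vein in 0.01% Tween-20, and in the vehicle groups 0.01% Tween-20 alone. Beads lodging in the lung vessels stand in for clots, and unlike clots polystyrene does not dissolve. Hearts were taken 6 weeks later, perfused with saline, and each right ventricle was cut into an apex part and an outflow tract (base) part. Both regions of vehicle and of PE rats made 4 groups, which held 5 Affymetrix arrays each, labelled as biological replicates. Age was not given in the labels used here.

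Potassium channels carry the outward currents that end the cardiac action potential and hold the resting potential. In rat ventricle the early repolarization rests largely on the fast transient outward current, whose pores are Kv4.2 (Kcnd2) and Kv4.3 (Kcnd3) and whose accessory subunit is KChIP2 (Kcnip2). The delayed rectifiers are the rapid one, with its pore ERG (Kcnh2), the slow one, with its pore KvLQT1 (Kcnq1) and its accessory subunit minK (Kcne1), and the ultrarapid one, Kv1.5 (Kcna5). Kir2.1 (Kcnj2) sets the resting potential, Kir6.2 (Kcnj11) is the pore of the ATP-sensitive channel that couples energy state to excitability, and TASK-1 (Kcnk3) is a tandem-pore-domain leak channel.

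The promoter windows below were picked by their position, not by any change in signal. Of the 2 genes printed, Kcnd3 fell in the outflow tract of PE rats and Kcnj2 did not pass the test. RefSeq promoter entries (build GRCr8) matched 6 of the 10 genes: Kcnd2, Kcnd3, Kcnip2, Kcne1, Kcna5 and Kcnj2. Of these, 2 had the 250 bases before the start wholly outside the gene's own span, and these are printed 5′ to 3′ on the plus strand. Capitals mark GC boxes (GGGCGG or, on the other strand, CCGCCC) and CCAAT boxes (CCAAT or ATTGG).
Kcnd3, chr2:195626066-195626315: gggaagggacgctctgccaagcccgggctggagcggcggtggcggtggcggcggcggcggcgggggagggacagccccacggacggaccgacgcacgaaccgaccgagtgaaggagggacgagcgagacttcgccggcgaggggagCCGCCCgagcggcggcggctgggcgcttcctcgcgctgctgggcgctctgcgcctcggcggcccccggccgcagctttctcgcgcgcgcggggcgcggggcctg
Kcnj2, chr10:96559975-96560224: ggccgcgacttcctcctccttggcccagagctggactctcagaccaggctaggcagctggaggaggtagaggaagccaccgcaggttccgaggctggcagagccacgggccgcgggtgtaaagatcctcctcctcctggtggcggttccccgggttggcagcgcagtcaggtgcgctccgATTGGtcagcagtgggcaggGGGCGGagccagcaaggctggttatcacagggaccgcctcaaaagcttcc
The Kcnd3 window had 79.6% G and C and 1 GC box, and the Kcnj2 window had 66.0% G and C, 1 GC box and 1 CCAAT box. Among the 4 other windows, that of Kcnip2 held 2 GC boxes and 1 CCAAT box, and those of Kcnd2, Kcne1 and Kcna5 held 0 of either. A GC box was present in 30.5% and a CCAAT box in 34.0% of all 33469 rat windows of this length. The nuclear receptor motif AAGGTCA (3.99% of all windows, both strands) and the Irx motif ACATGT (4.89%, the same on both strands) were found in 0 of the 6 windows. A match is a description of letters, not a site, and no match says only that these letters are not in these windows.

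The deposited signal is linear, with array medians of 123 to 159.4, so signals well below this are called dim here. A GAPDH control, read near its 3' and 5' ends, gives a ratio that goes up as RNA is degraded. This ratio was 1.38 to 1.83 in the vehicle and PE apex groups. PE outflow replicate 2 had 6.12, replicates 4 and 5 had 2.20 and 2.34, and replicates 1 and 3 had 1.71 and 1.70. Replicates 2, 4 and 5 of PE outflow therefore stand apart from the rest, and the main outflow results on the deposited scale are given with and without them. All ratios above 1.83 were in PE outflow, so a fit with this ratio as a covariate cannot fully separate it from the group. Arrays carry no molecule counts, and their number limits the precision. In bulk tissue, fewer cells of a type and less RNA per cell cannot be told apart.

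In the outflow tract, most of these genes were lower in PE than in vehicle rats, and none was called higher. Of 19 probe sets, 13 were lower, 0 higher and 6 not called at an adjusted p under 0.05 (limma, Benjamini-Hochberg over all 31042 probe sets), against 14.9% of all probe sets called lower and 19.6% called higher. Counted by gene through the probe set with the highest mean (called the brightest here), Kcnd2, Kcnd3, Kcnip2, Kcnh2, Kcnq1, Kcnj11 and Kcnk3 fell, and Kcne1, Kcna5 and Kcnj2 did not pass. The median log2 fold change of the 10 genes was -1.3, against 0.1 over all genes. On 12 of the 19 probe sets every PE outflow array lay below every vehicle outflow array, which held for 9.98% of all probe sets. In the apex, 0 of 19 probe sets were called, against 0.0129% of all probe sets called higher and 0.0% called lower; 2 of the 10 genes, Kcnd3 and Kcne1, had an unadjusted p under 0.05. The median over the 10 genes there was -0.18, against 0.0 over all genes. Each fold change is one of signal plus 16 and carries the model's standard error (SE); such values understate the change of dim genes.

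**Figure D1:**
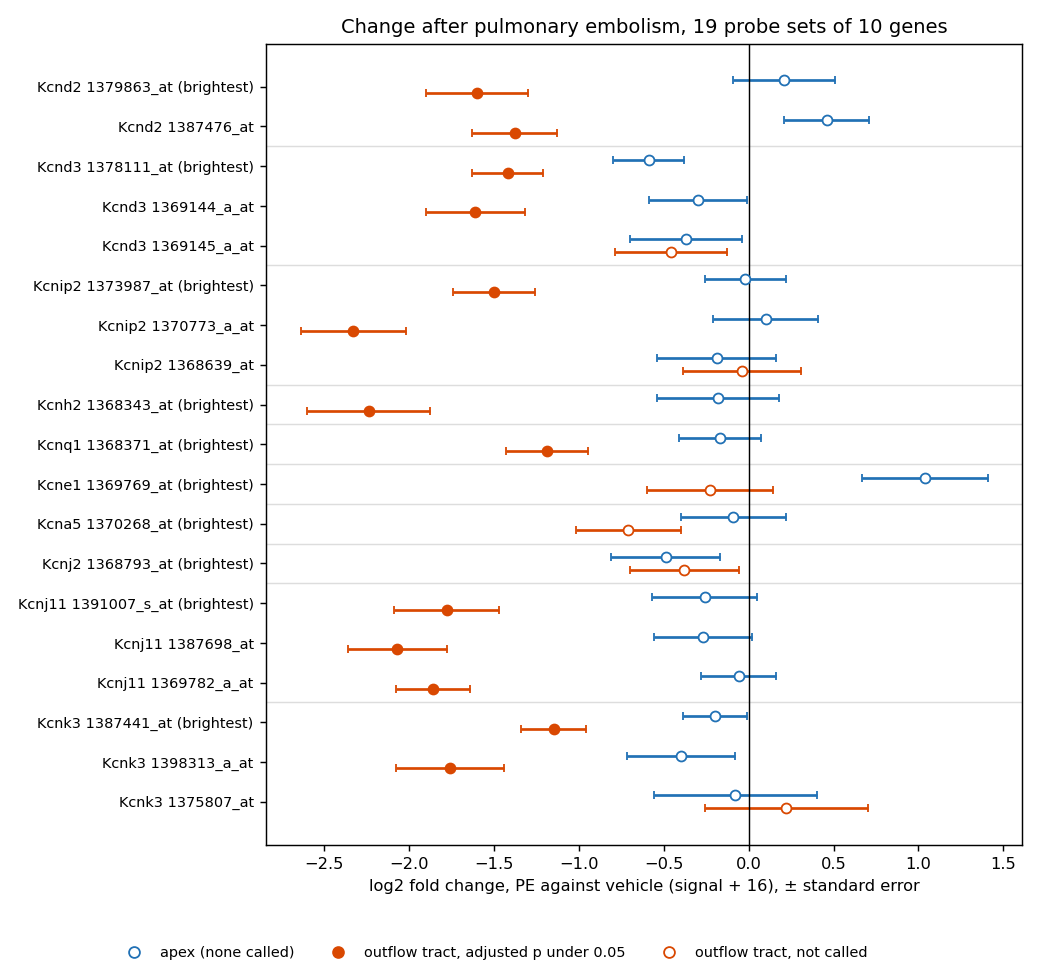
Log2 fold change of PE against vehicle (horizontal axis, signal plus 16, with its standard error) for each of the 19 probe sets, in the apex (blue) and the outflow tract (orange); filled points passed an adjusted p under 0.05. The 13 filled points are all orange and lie between -2.33 and -1.15, while 0 points of the apex passed.

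The transient outward current was measured at both pores and the accessory subunit, and all 3 genes fell in the outflow tract. Kcnd2 (probe set 1379863_at), the Kv4.2 pore, had signals of 662, 454, 479, 589 and 730 in vehicle outflow and 214, 396, 240, 68.5 and 118 in PE outflow. Every PE array was below every vehicle array, and the spread within the PE group was wide. The mean signal was 583 ± 118 (SD, n = 5) in vehicle and 207 ± 126 in PE outflow, a log2 fold change of -1.60 ± 0.30 (SE, adjusted p = 0.000303, 3.04-fold lower). In the apex the signals were 541, 481, 384, 680 and 658 in vehicle and 595, 532, 585, 667 and 758 in PE rats, and these overlapped. The apex change of Kcnd2 was 0.21 ± 0.30 (adjusted p = 0.923). The other Kcnd2 probe set, 1387476_at, moved the same way in the outflow tract, from 236 ± 36.6 to 87.7 ± 41.6 (-1.38, adjusted p = 0.00018), with no overlap.

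Kcnd3 (1378111_at), the Kv4.3 pore, read 632, 583, 548, 511 and 527 in vehicle outflow and 213, 329, 295, 126 and 115 in PE outflow. The groups did not overlap, and the means were 560 ± 48.4 and 216 ± 96.8 (-1.42 ± 0.21, adjusted p = 3.21e-05, 2.68-fold lower). Its apex signals were 583, 612, 682, 579 and 833 in vehicle and 428, 400, 456, 425 and 436 in PE rats. All 5 PE apex arrays were thus below all 5 vehicle apex arrays, which held for 1.5% of all probe sets, and Kcnd3 was the only 1 of the 19 probe sets where it did. The apex difference of -0.59 ± 0.21 had an unadjusted p of 0.0126 and did not pass over all probe sets (adjusted p = 0.5; 0.0693 to 0.786 over the alternatives). A further probe set of Kcnd3, 1369144_a_at, fell in the outflow tract from 307 ± 58.8 to 99.4 ± 54.7 (-1.61, adjusted p = 0.000222), whereas the dimmest, 1369145_a_at, went from 68.2 ± 16.9 to 49.4 ± 28.0 and did not pass (-0.46, adjusted p = 0.319). In the apex neither passed, with -0.30 for 1369144_a_at (adjusted p = 0.87) and -0.37 for 1369145_a_at (adjusted p = 0.852), and the groups overlapped.

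Kcnip2 (1373987_at), whose KChIP2 product brings Kv4 channels to the membrane and slows their inactivation, read 9575, 9722, 10513, 10010 and 12034 in vehicle outflow. In PE outflow it read 5372, 5297, 5154, 2318 and 1872. Replicates 1, 2 and 3 lay close together, and replicates 4 and 5 lay well below them. The means were 10371 ± 996 and 4003 ± 1750 (-1.5 ± 0.24, adjusted p = 5.35e-05, 2.83-fold lower). Apex signals were 9615, 8124, 9570, 9005 and 11347 in vehicle and 9920, 9413, 8588, 9373 and 9547 in PE rats, a change of -0.02 ± 0.24 (adjusted p = 0.995). Probe set 1370773_a_at showed a larger fall in the outflow tract, from 1448 ± 286 to 328 ± 235 (-2.33, adjusted p = 8.92e-06). The last Kcnip2 probe set, 1368639_at, was dim on every array (1.57 to 47.4) and did not pass (-0.04, adjusted p = 0.955).

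**Figure D2:**
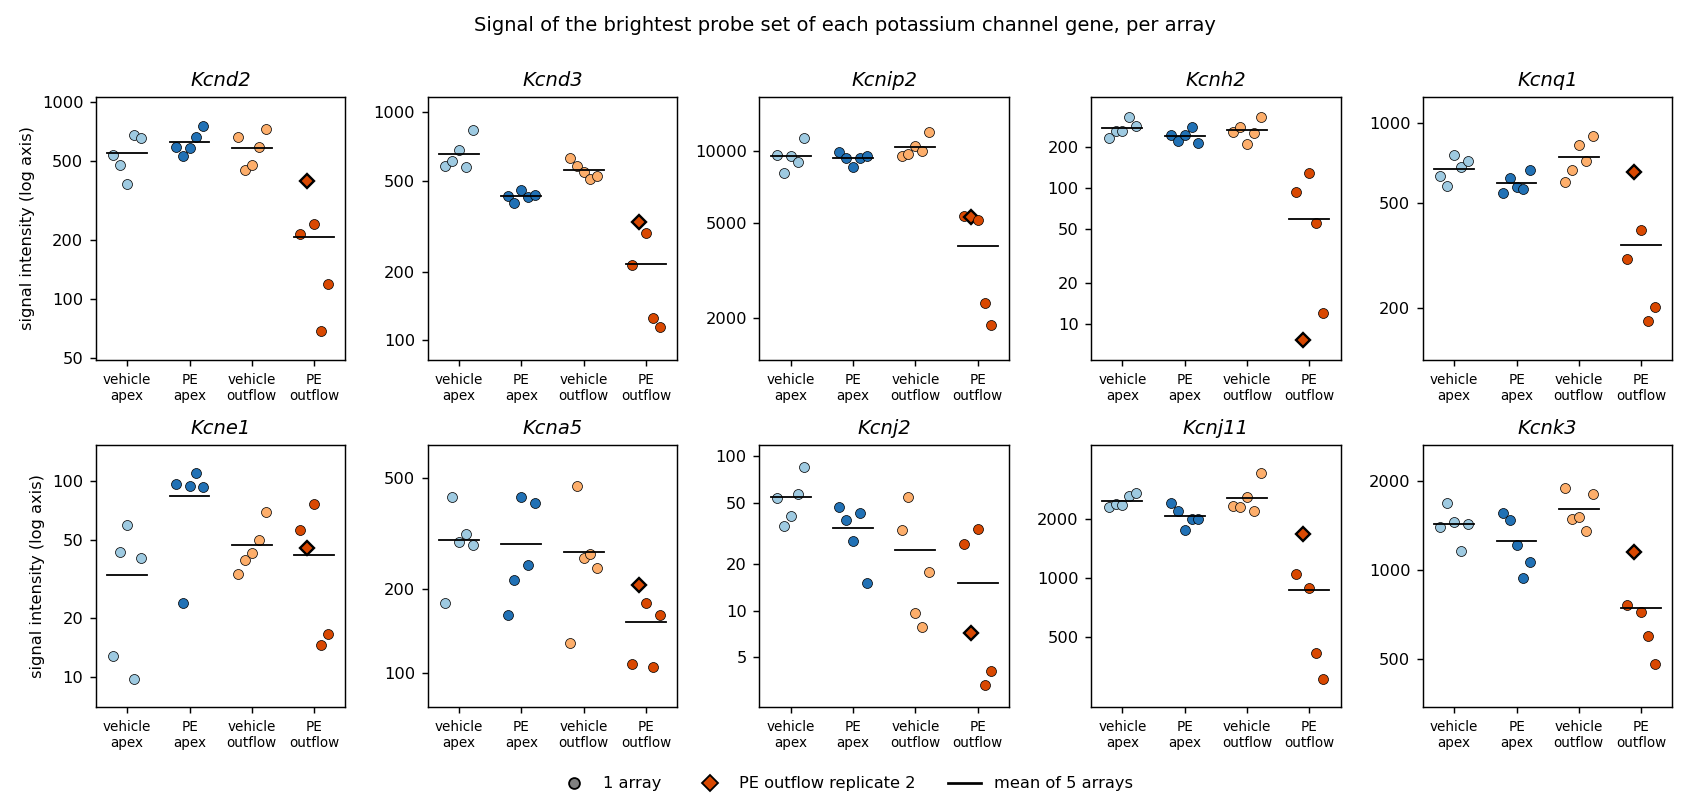
Deposited signal intensity (vertical axis, logarithmic, 1 scale per panel) of the brightest probe set of each gene on the 20 arrays, by group; the line is the mean of 5 arrays and the diamond is replicate 2 of the PE outflow group. For Kcnd2, Kcnd3, Kcnip2, Kcnh2, Kcnj11 and Kcnk3 all 5 PE outflow arrays lie below all vehicle outflow arrays, and for Kcnd3 all 5 PE apex arrays also lie below all vehicle apex arrays.

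Among the delayed rectifiers, the pores Kcnh2 and Kcnq1 fell in the outflow tract. Kcnh2 (1368343_at), the ERG pore of the rapid current, had signals of 258, 281, 212, 253 and 331 in vehicle outflow and 93.9, 7.63, 128, 54.8 and 12.1 in PE outflow. The groups did not overlap, and replicates 2 and 5 of PE were near the bottom of the scale. The means of 267 ± 43.7 and 59.2 ± 51.9 gave the largest change of the 10 brightest probe sets, -2.24 ± 0.36 (adjusted p = 6.2e-05, 4.71-fold lower). With PE outflow replicates 1 and 3 alone it was -1.16 ± 0.17 (adjusted p = 0.000117), and with the GAPDH ratio as a covariate -1.37 ± 0.30 (adjusted p = 0.0014). Both are called but smaller, and neither was the largest, as Kcnj11 (1391007_s_at) gave -1.38 and -2.17. Without PE outflow replicate 2, Kcnh2 (-1.90) was also behind Kcnj11 (-2.08). Apex signals of Kcnh2 were 234, 263, 261, 331 and 286 in vehicle and 245, 220, 244, 282 and 214 in PE rats (-0.18 ± 0.36, adjusted p = 0.952).

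Kcnq1 (1368371_at), the pore of the slow current, read 600, 665, 823, 718 and 891 in vehicle outflow and 306, 652, 395, 179 and 202 in PE outflow. Replicate 2 of PE lay within the vehicle range, and the other 4 arrays lay below it. The means were 739 ± 118 and 347 ± 191 (-1.19 ± 0.24, adjusted p = 0.000531, 2.29-fold lower). In the apex Kcnq1 read 628, 578, 754, 678 and 718 in vehicle and 544, 616, 572, 564 and 665 in PE rats, and the groups overlapped (-0.17 ± 0.24, adjusted p = 0.92).

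Kcne1 (1369769_at), the minK subunit that slows Kcnq1 channels, was dim throughout. It read 33.6, 39.7, 42.8, 49.9 and 69.5 in vehicle outflow and 56.2, 45.3, 76.7, 14.5 and 16.5 in PE outflow, which overlapped (-0.23 ± 0.37, adjusted p = 0.685). In the apex it read 12.8, 43.3, 59.8, 9.79 and 40.3 in vehicle and 96.6, 23.8, 94.9, 109.6 and 93.5 in PE rats. On 4 of the 5 PE apex arrays the signal was above every vehicle apex array, and on replicate 2 it was not. The apex difference of 1.04 ± 0.37 had an unadjusted p of 0.0109 and did not pass (adjusted p = 0.487; 0.247 to 0.792 over the alternatives).

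Kcna5 (1370268_at), the Kv1.5 pore, varied widely in every group. It read 129, 468, 258, 266 and 238 in vehicle outflow and 108, 207, 178, 106 and 161 in PE outflow, and the lowest vehicle array lay among the PE arrays. The change of -0.71 ± 0.31 did not pass (adjusted p = 0.0797). It passed on the same arrays after quantile normalization (-0.84, adjusted p = 0.0367), after centring on each array's median (-0.85, adjusted p = 0.0355) or without the dimmest 40% of probe sets (-0.71, adjusted p = 0.0465), and without vehicle outflow replicate 1 (-0.94, adjusted p = 0.0194). In the apex the ranges were 178 to 427 in vehicle and 161 to 425 in PE rats (-0.09, adjusted p = 0.978).

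Of the inward rectifiers, Kcnj11 fell and Kcnj2 did not pass. Kcnj11 (1391007_s_at), the pore of the ATP-sensitive channel, read 2346, 2296, 2585, 2190 and 3429 in vehicle outflow and 1049, 1680, 889, 414 and 306 in PE outflow. The groups did not overlap, and the PE arrays spread over a wider range of ratios than the vehicle arrays. The means were 2570 ± 502 and 868 ± 551 (-1.78 ± 0.31, adjusted p = 0.000142, 3.43-fold lower). Apex signals were 2307, 2397, 2362, 2616 and 2713 in vehicle and 2422, 2206, 1759, 2011 and 1999 in PE rats (-0.26, adjusted p = 0.901). The other Kcnj11 probe sets fell by a similar size in the outflow tract: 1387698_at from 1536 ± 331 to 403 ± 235 (-2.07, adjusted p = 1.34e-05) and 1369782_a_at from 501 ± 84.5 to 132 ± 48.8 (-1.86, adjusted p = 2.43e-06). Kcnj2 (1368793_at), the Kir2.1 pore, was dim, at 15.1 to 84.6 in the apex and 3.31 to 54.2 in the outflow tract. Its groups overlapped in both regions, and its changes of -0.49 in the apex (adjusted p = 0.787) and -0.38 in the outflow tract (adjusted p = 0.406) did not pass.

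Kcnk3 (1387441_at), the TASK-1 leak channel, read 1904, 1493, 1520, 1364 and 1814 in vehicle outflow and 766, 1151, 723, 598 and 481 in PE outflow. The groups did not overlap, with replicate 2 of PE nearest to the vehicle arrays. The means were 1619 ± 229 and 744 ± 254 (-1.15 ± 0.19, adjusted p = 0.000102, 2.23-fold lower). The apex signals of 1405, 1696, 1453, 1164 and 1439 in vehicle and 1564, 1485, 1216, 945 and 1064 in PE rats overlapped (-0.20, adjusted p = 0.863). Probe set 1398313_a_at fell in the outflow tract from 183 ± 71.0 to 46.5 ± 28.2 (-1.76, adjusted p = 0.000222), and the dim 1375807_at (14.8 to 164 over all arrays) did not pass (0.22, adjusted p = 0.783).

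The regions were also compared within each treatment. In vehicle rats 0 of the 19 probe sets differed between outflow tract and apex, as did 0.0% of all probe sets in either direction; 1 gene of the 10, Kcnj2, had an unadjusted p under 0.05 (0.0129). In PE rats 13 of 19 probe sets were lower in the outflow tract than in the apex and 0 were higher, against 12.7% and 16% of all probe sets. These were probe sets of the same 7 genes that fell against vehicle, with changes of the brightest from -0.78 (Kcnk3) to -2.11 (Kcnh2). The difference between the PE effects (outflow minus apex) was called lower for 12 probe sets and higher for 0, against 8.09% and 9.84% of all probe sets. By brightest probe set these were Kcnh2 (-2.06, adjusted p = 0.00828), Kcnd2 (-1.81, adjusted p = 0.00629), Kcnj11 (-1.52, adjusted p = 0.0204), Kcnip2 (-1.48, adjusted p = 0.00496), Kcnq1 (-1.02, adjusted p = 0.0411) and Kcnk3 (-0.95, adjusted p = 0.0208). For Kcnd3, which was also low in the PE apex, the difference of -0.83 did not pass (adjusted p = 0.0624). It was called under 10 alternatives. Among them were leaving out vehicle apex replicate 5 (-0.92, adjusted p = 0.0488), PE outflow replicate 2 (-1.0, adjusted p = 0.0108) or PE outflow replicate 3 (-0.97, adjusted p = 0.0285). Over all alternatives the Kcnd3 difference ranged from -1.07 to -0.028 (adjusted p 0.0108 to 0.928). The smallest, -0.028, came with centring on the cardiomyocyte markers. The call of Kcnq1 was lost under 16: with centring on cardiomyocyte markers, and without any 1 of the PE apex arrays, vehicle apex replicates 1, 2, 4 or 5, vehicle outflow replicates 3, 4 or 5, or PE outflow replicates 1, 4 or 5, which gave -0.83 to -1.05 with an adjusted p of 0.0522 to 0.0828. Kcne1 had a difference of -1.27 that did not pass (adjusted p = 0.1) and was called without PE apex replicate 2 (-1.57, adjusted p = 0.0283). Centring on the cardiomyocyte markers also ended the calls of Kcnh2 (-1.25, adjusted p = 0.0828), Kcnj11 (-0.72, adjusted p = 0.0508) and Kcnk3 (-0.14, adjusted p = 0.657), and left 6 of the 19 probe sets called lower. The comparisons share arrays, so they are not independent of each other.

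Among the 5 PE outflow arrays, replicates 4 and 5 were low for most genes, while the order of the others varied from gene to gene. Replicate 4 was the lowest array for 5 of the 10 genes and replicate 5 for 4, and each was among the 2 lowest for 9. Replicate 2 was the highest for 6 genes and the lowest for 1, Kcnh2. Against the vehicle outflow mean, Kcnj11 was lower by a log2 difference of -0.59 on replicate 2, -1.26 and -1.49 on replicates 1 and 3, and -2.57 and -2.99 on replicates 4 and 5. Kcnip2 differed by -0.94, -0.96 and -1.0 on replicates 1, 2 and 3 and by -2.15 and -2.46 on replicates 4 and 5. Kcnh2 departed from this order, with -3.57 on replicate 2. With replicates 1 and 3 alone, the 13 probe sets called lower numbered 13 again, and the brightest probe sets gave -1.28 for Kcnd2, -1.11 for Kcnd3, -0.97 for Kcnip2, -1.04 for Kcnq1, -1.38 for Kcnj11 and -1.09 for Kcnk3. The number called lower was also 13 without replicate 2, without replicate 4 and without replicate 5.

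**Figure D3:**
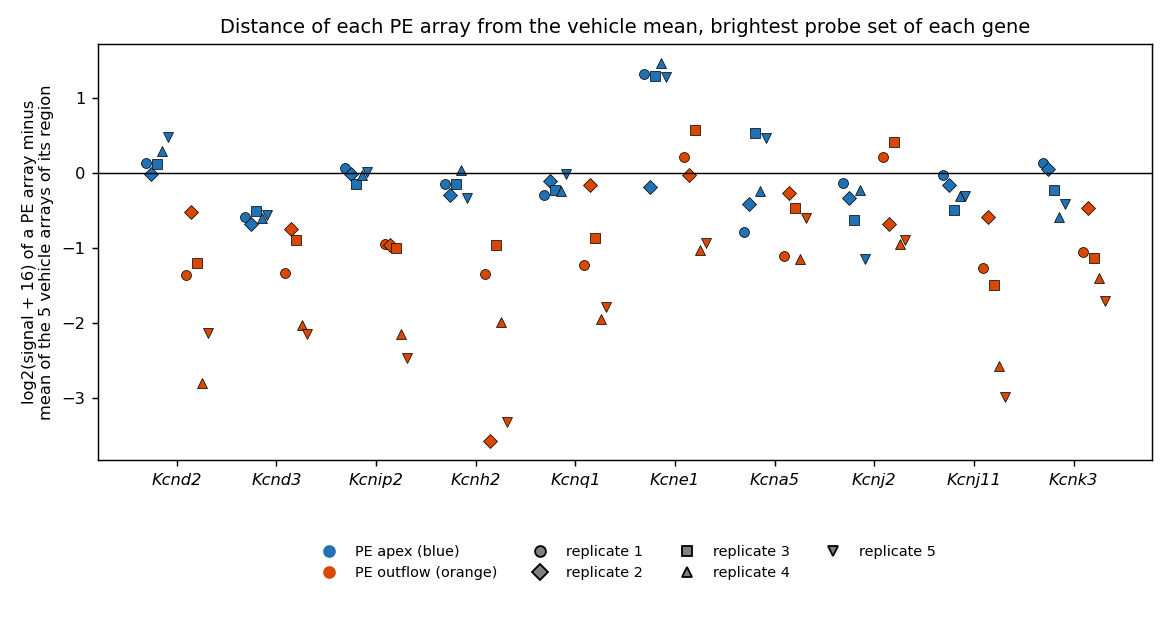
Log2 difference (vertical axis, signal plus 16) of each PE array from the mean of the 5 vehicle arrays of its region, for the brightest probe set of each gene; blue is apex, orange is outflow tract, and symbols mark the replicate. In the outflow tract replicate 4 and replicate 5 are each among the 2 lowest arrays for 9 of 10 genes, not the same 9,, and replicate 2 is the highest for 6 and the lowest for Kcnh2.

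Probe sets of 1 gene were set against each other on each array, a check chosen after the values were seen. Only the change of such a ratio between arrays can be read, not its level. The ratio of Kcnip2 1373987_at to 1370773_a_at was 39.2 on PE outflow replicate 2, against 6.22 to 12.0 on the 19 other arrays. For Kcnk3, 1387441_at over 1398313_a_at was 148 there, against 5.48 to 16.9. For Kcnj11, 1391007_s_at over 1369782_a_at was 11.5, against 3.78 to 7.62, while 1391007_s_at over 1387698_at (2.33) lay within the range of the other arrays, 1.5 to 2.42. The ratios of Kcnd2 1379863_at to 1387476_at (2.91) and of Kcnd3 1378111_at to 1369144_a_at (2.57) also lay within the others' range, as did the 3 pairs with a dim probe set. This array had the GAPDH ratio of 6.12. With that ratio as a covariate the outflow changes were -1.64 for Kcnip2 1370773_a_at (adjusted p = 0.000172), -1.02 for Kcnk3 1398313_a_at (adjusted p = 0.00807) and -1.79 for Kcnj11 1369782_a_at (adjusted p = 6.79e-05). Without the array the falls were -2.10 for Kcnip2 1370773_a_at (adjusted p = 1.54e-05), -1.45 for Kcnk3 1398313_a_at (adjusted p = 0.000278) and -1.91 for Kcnj11 1369782_a_at (adjusted p = 3.51e-06).

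**Figure D4:**
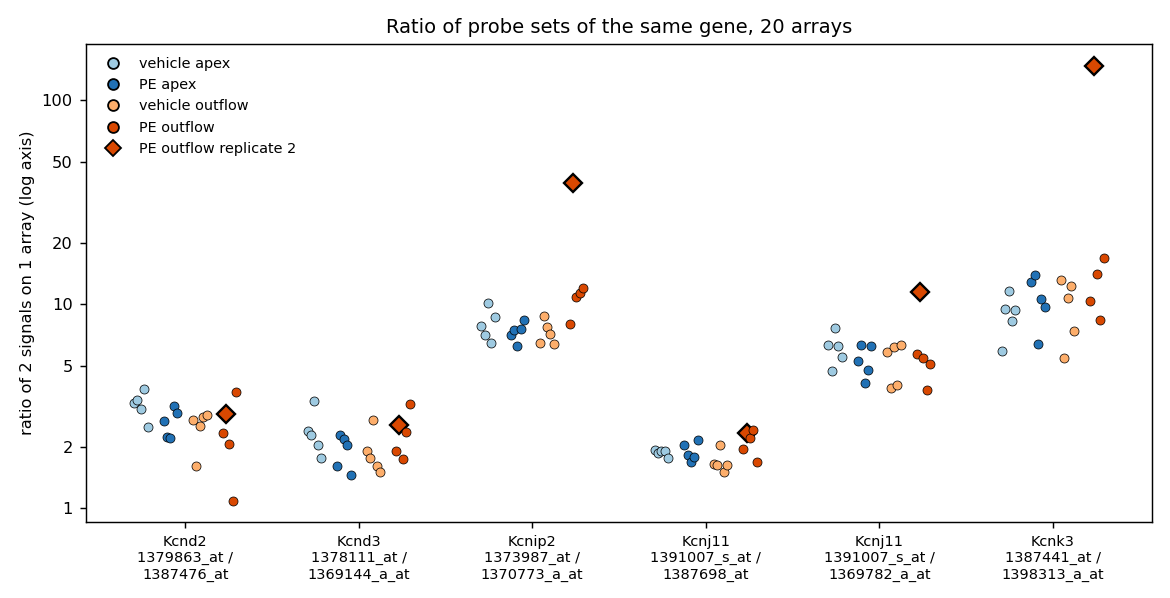
Ratio of the signals of a pair of probe sets of the same gene on each of the 20 arrays (vertical axis, logarithmic), by group; the diamond is replicate 2 of the PE outflow group. This array lies outside the range of the 19 others for the Kcnip2 and Kcnk3 pairs and for 1 of the Kcnj11 pairs, and inside it for the other 3 pairs.

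Most cardiomyocyte genes also fell in the outflow tract, where 14.9% of all probe sets were called lower and 19.6% higher. Of 15 measured cardiomyocyte markers, 14 fell and 0 rose in the outflow tract (median log2 fold change -0.87), and 0 of 15 were called in the apex (-0.18). Their summed signal was 500843 to 581967 on the vehicle outflow arrays and 210246 to 587159 on the PE outflow arrays, and none was at 0. The mean log2 signal of these markers was 14.94 to 15.12 in vehicle outflow and 14.21, 14.99, 14.16, 13.64 and 13.46 in PE outflow replicates 1 to 5, with the same arrays, 4 and 5, at the bottom. On replicate 2 the marker mean lay within the vehicle range. The channel genes there were below the vehicle mean by log2 differences from -0.02 (Kcne1) to -3.57 (Kcnh2). Markers of other cells rose: 11 of 12 fibroblast genes (median 1.54), 9 of 10 macrophage genes (1.27), 5 of 8 nerve and Schwann genes (1.43), 4 of 8 adipocyte genes (1.73; 2 fell), 6 of 10 smooth muscle genes (1.28; 2 fell) and 3 of 8 lymphocyte genes (0.72). Endothelial genes were divided, with 2 higher, 1 lower and 6 not called of 9, near the shares of all probe sets. Of 7 atrial genes, 4 rose and 1 fell, and the natriuretic peptide Nppa was the 1 gene of all these lists called in the apex (3.78, adjusted p = 0.00591).

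When each array was instead centred on the mean of the cardiomyocyte markers, the outflow median of all probe sets moved from 0.05 to 1.02, and 1.73% of all probe sets were called lower and 73.8% higher. On that scale 9 of the 19 channel probe sets were lower and 3 higher. Kcnh2 (-1.27 ± 0.41, adjusted p = 0.00896), Kcnj11 (-0.81 ± 0.20, adjusted p = 0.00149), Kcnd2 (-0.63 ± 0.22, adjusted p = 0.0127), Kcnip2 (-0.53 ± 0.19, adjusted p = 0.0142) and Kcnd3 (-0.45 ± 0.17, adjusted p = 0.0202) were still lower relative to the cardiomyocyte markers. Kcnq1 (-0.22 ± 0.17, adjusted p = 0.238) and Kcnk3 (-0.19 ± 0.19, adjusted p = 0.364) were not called on this scale, and the second Kcnd2 probe set also was not (-0.41, adjusted p = 0.0683). Kcne1 turned to 0.73 ± 0.33, at the threshold (adjusted p = 0.05 when rounded, called higher), Kcnj2 to 0.59 and Kcna5 to 0.25, neither of which passed. The remaining probe sets called higher were the dim 1368639_at of Kcnip2 (0.93) and 1375807_at of Kcnk3 (1.19). Ratios within an array show unequal change only, and the part of the cell mixture in the deposited-scale falls was not tested beyond this.

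**Figure D5:**
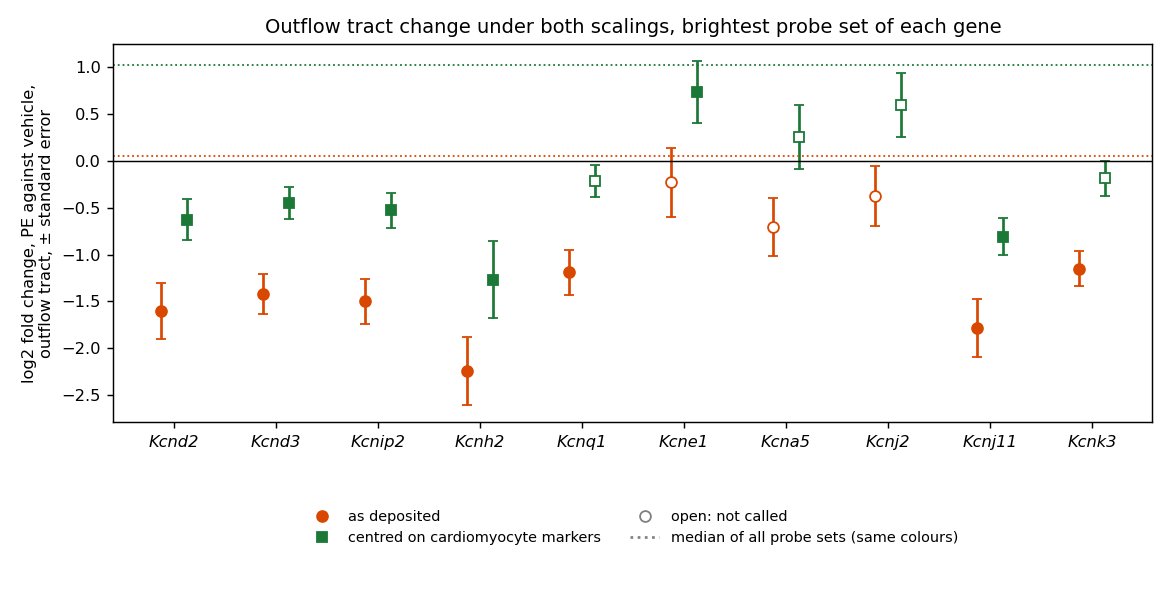
Log2 fold change of PE against vehicle in the outflow tract (vertical axis, with its standard error) of the brightest probe set of each gene, on the deposited scale (orange) and after centring each array on the cardiomyocyte markers (green); filled points passed an adjusted p under 0.05 and dotted lines are the medians of all probe sets, 0.05 and 1.02. Kcnd2, Kcnd3, Kcnip2, Kcnh2 and Kcnj11 are lower on both scales, and Kcnq1 and Kcnk3 on the deposited scale alone.

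Subunits that share a channel or current were compared as log2 ratios of their brightest probe sets, by an exact two-sided permutation test over arrays with p-values adjusted over 6 tests; 5 arrays against 5 cannot give a p below 0.00794. In the apex the ratio of Kcnd2 to Kcnd3 was 0.52 ± 0.18 (SD) in PE and -0.27 ± 0.38 in vehicle rats, a difference of 0.79 (exact p = 0.00794, adjusted p = 0.0476). All 5 PE apex arrays were above all 5 vehicle arrays, and the difference was 0.66 to 0.92 over the alternatives. In the outflow tract the same ratio differed by -0.18 (exact p = 0.452, adjusted p = 0.542). The ratio of Kcne1 to Kcnq1 was higher in PE rats by 0.96 in the outflow tract (exact p = 0.0159, adjusted p = 0.0477) and by 1.21 in the apex, where it did not pass (exact p = 0.0317, adjusted p = 0.0634). Of this pair Kcnq1 fell and Kcne1, which is dim, did not pass in the outflow tract. The ratio of Kcnip2 to Kcnd2 differed by -0.23 in the apex (exact p = 0.23, adjusted p = 0.345) and by 0.10 in the outflow tract (exact p = 0.683), where the next brightest probe sets gave -0.95.

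Of 54 other potassium channel pore subunits, 7 rose, 8 fell and 39 did not pass in the outflow tract (median -0.07), where 19.6% of all probe sets were called higher and 14.9% lower, so the share that fell is near that of all probe sets. This share counts many genes that are dim in vehicle outflow, where changes are understated. Named after their values were seen, the brighter Kcna2 (895 in vehicle outflow, -1.09), Kcnj8 (884, -0.53) and Kcnj3 (209, -1.19) also fell. Kcns3 (341, 0.69) and Kcnk6 (233, 1.01) rose, and Kcnh3 (228, -0.07) did not pass. In the apex 0 of 54 were called. The falls were led by Kcnk2, the stretch-sensitive TREK-1 channel (-2.22, from 987 ± 69.5 to 211 ± 85.0, adjusted p = 3.59e-07). Next came Kcng2, a silent subunit that joins Kv2 pores (-1.51, adjusted p = 0.000325), Kcnj5, a pore of the acetylcholine-gated channel (-1.38, adjusted p = 5.05e-05), and Kcna4, the Kv1.4 pore of the slow transient outward current (-1.19, adjusted p = 0.00213). Kcnma1, the calcium-activated BK channel abundant in smooth muscle, rose by 3.16 (from 50.8 ± 19.7 to 587 ± 191, adjusted p = 5.94e-08). Kcnd1, the third Kv4 pore, rose by 1.60 (from 42.7 ± 20.6 to 157 ± 36.3, adjusted p = 5e-05) while Kcnd2 and Kcnd3 fell. Kcnc2 (1.41, adjusted p = 0.0011) and Kcnk13 (1.15, adjusted p = 0.000599) rose from means of 27.3 and 39.2. These vehicle means are dim, as are those of Kcnma1 and Kcnd1.

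Of 24 accessory subunits and partners, 5 rose, 4 fell and 15 did not pass (median 0.13), which is near the 19.6% higher and 14.9% lower of all probe sets. Dim genes are counted here too. Abcc8, the sulfonylurea receptor SUR1 that can join Kcnj11, fell by 1.74 on the log2 scale (adjusted p = 7.94e-06), while Abcc9, the SUR2 partner, went from 4440 to 3920 and did not pass (-0.20, adjusted p = 0.23; named after its value was seen). Cav3, the muscle caveolin (-1.43, adjusted p = 1.24e-05), Fhl2, which binds minK (-1.15, adjusted p = 9e-05), and Ank3, ankyrin-G (-1.06, adjusted p = 0.00013), fell. Kcne4, an inhibitory partner of Kcnq1, rose by 1.91 (from 236 ± 34.6 to 945 ± 238, adjusted p = 1.51e-07), and so did the BK subunits Kcnmb1 (1.51, adjusted p = 0.00152) and Kcnmb4 (0.66, adjusted p = 0.0471) and the Kv1 subunit Kcnab1 (0.63, adjusted p = 0.0147).

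Among 26 transcription factors and coactivators of cardiac channel genes, 12 fell, 4 rose and 10 did not pass in the outflow tract (median -0.42). Of all probe sets, 14.9% were called lower and 19.6% higher there, so the share that rose was not above that of all probe sets. Nkx2-5, a cardiac homeobox factor, fell by 1.86 on the log2 scale (adjusted p = 2.73e-06), and Esrra (-1.66, adjusted p = 2.75e-06) and Ppargc1a (-1.40, adjusted p = 6.99e-05), which drive mitochondrial genes, fell too. Irx3, of the Iroquois family that patterns ventricular repolarization, fell (-1.46, adjusted p = 8.58e-05), whereas Irx5, which represses Kcnd2 in mouse ventricle, did not pass (-0.40, adjusted p = 0.184; named after its value was seen). Etv1 (0.80, adjusted p = 0.0168), Nfatc1 (0.63, adjusted p = 0.00221), Nfatc4 (0.54, adjusted p = 0.0186) and Nfatc3 (0.45, adjusted p = 0.0107) rose. Of 13 other channels and transporters of the action potential, 9 fell, 1 rose and 3 did not pass (median -0.91), against the same shares of all probe sets. Scn4b, a sodium channel subunit (-1.98, adjusted p = 4.26e-06), Cacnb2 (-1.45, adjusted p = 4.97e-05) and Cacna1c (-1.42, adjusted p = 9.22e-07), of the L-type calcium channel, and Atp1b1, of the sodium pump (-1.38, adjusted p = 1.97e-06), fell most, and the atrial and conduction connexin Gja5 rose (0.74, adjusted p = 0.00145). In the apex 0 genes of these 3 lists were called.

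The 4 channel genes with the smallest outflow p were compared with 8123 other genes of mean log2 signal above 8 over the 20 arrays; the r values describe likeness, and the group differences and array scale are shared by all genes. Kcnip2 was most like Dlst (r = 0.988), Pdk2 (0.987) and Dnaja4 (0.986), which encode a Krebs cycle enzyme, a pyruvate dehydrogenase kinase and a chaperone. Kcnd3 was most like Ryr2, the calcium release channel (0.967), Hspd1, a mitochondrial chaperonin (0.966), and Dsp, desmoplakin (0.966). Kcnh2 was most like Rab1b (0.978), Ppif (0.97) and Akr1b1 (0.965), and Kcnk3 was most like Mrps35 (0.953), Gata5 (0.951) and Park7 (0.949). All 12 of these genes had a negative log2 fold change in the outflow tract, from -0.75 to -1.99, and one of -0.05 to -0.29 in the apex. Their choice by likeness to genes that fell on the same arrays favours such changes, so these are not a separate result.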

How the data were processed

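The deposited table holds linear signal intensities, 1 per probe set and array, as scaled by the authors: with 2% trimmed from each end, every array had a mean of 500.2. The software is not given in the sources used here. Groups came from the sample titles, and a text field that describes the vehicle injection for all samples was not used. Signals were transformed to log2 after adding 16, and the 4 groups were fitted on all 20 arrays with limma 3.58.1 (lmFit, eBayes) in R 4.3.3. The 57 control probe sets were left out of the tests. P-values are two-sided, adjusted by Benjamini-Hochberg over 31042 probe sets, and called under 0.05. Symbols came from the platform annotation. The script was tested on simulated data. Exact permutation tests used SciPy 1.17.1. Each p-value measures the spread between these arrays. The limma p-values and standard errors use 1 spread per probe set, shared by the 4 groups. With only the compared groups, the outflow adjusted p was larger, at 0.00366 for Kcnip2 (1373987_at) and 0.0125 for Kcnq1, and both were still called.

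The channel genes, the other gene lists and the tests were chosen with earlier results of these data known, and support nothing independently. All channel genes are named with every probe set. From each other channel list, up to 4 called rises and 4 called falls of the largest size in the outflow tract are named, and up to 2 and 2 in the apex. For the 4 channel genes with the smallest outflow p, the 3 genes of highest Pearson r are named.

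The sample titles do not state that apex and outflow arrays of the same replicate number came from the same rat. Within a treatment, deviations from the group means correlated at 0.181 to 0.283 between arrays of the same number, across 12310 probe sets averaging above 8 in log2 signal, and each array matched its own number best. The number was therefore taken as the rat, which is inferred. The correlation within such blocks, as fitted over all probe sets, was 0.065. Vehicle and PE rats were not paired by number (-0.283 to 0.154). The alternatives were other scalings, pseudocounts, filters and variance models, a covariate for the GAPDH ratio, a block for the rat, and leaving arrays out.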

Additional observations from a re-analysis of the deposited data

Results flagged for a closer look

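The effect of PE differed between the outflow tract and the apex for 12 of the 19 channel probe sets, by the interaction term of the limma model (adjusted p under 0.05), all of them negative, against 8.09% of all probe sets called lower and 9.84% higher. With centring on the cardiomyocyte markers 6 were called, and the brightest probe sets of Kcnh2, Kcnq1, Kcnj11 and Kcnk3 were not. As outflow minus apex on the log2 scale, the differences were -1.81 and -1.84 for the Kcnd2 probe sets, -1.32 for Kcnd3 1369144_a_at, -1.48 and -2.43 for Kcnip2 1373987_at and 1370773_a_at, and -2.06 for Kcnh2. For Kcnq1 it was -1.02, for Kcnj11 -1.52, -1.80 and -1.80, and for Kcnk3 -0.95 and -1.35.

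Of 76 groups of 5 signals (19 probe sets in 4 groups), 2 held an array far from the other 4 by Dixon's test, which chance gives in about 1 of 20 groups. Kcnd3 1369144_a_at read 203 in vehicle outflow replicate 3, against 318 to 349 on the others. Kcne1 read 23.8 in PE apex replicate 2, against 93.5 to 110.0 on the others.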

How the results depend on the processing

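Each result was recomputed under up to 32 alternatives. The count of channel probe sets called lower in the outflow tract, 13, ranged from 9 to 14, and Kcnd2, Kcnd3, Kcnip2, Kcnh2 and Kcnj11 (brightest probe sets) stayed called there under every alternative run. The rat, inferred from the replicate number, as a block that pairs the regions also gave 13 there, 12 for the difference of the PE effect, and changed no call of a brightest probe set in the PE comparisons. Centring on the cardiomyocyte markers moved most: 3 probe sets higher in the outflow tract, 8 lower and 1 higher between the regions of PE rats, and 6 lower for the difference. It turned the apex changes of Kcnip2 to 0.14 and of Kcna5 to 0.076, the outflow changes of Kcne1 to 0.73, Kcna5 to 0.25 and Kcnj2 to 0.59, and the difference of Kcna5 to 0.18; it ended the difference calls of Kcnh2 (-1.25), Kcnq1 (-0.21), Kcnj11 (-0.72) and Kcnk3 (-0.14). Quantile normalization turned Kcnip2 in the apex to 0.048. With PE outflow replicates 1 and 3 alone, Kcne1 was 0.40 and Kcnj2 0.31 in the outflow tract, and the Kcne1 over Kcnq1 ratio of 1.44 had an exact p of 0.0952, the smallest that 2 against 5 arrays allow. The Kcnj2 difference turned to -0.004 with median centring and to -0.17 when 1 was added. The outflow ratio of Kcnd2 over Kcnd3 was 0.23 with the next brightest probe sets, and that of Kcnip2 over Kcnd2 was -0.95 with them and -0.12 when 64 was added. Leaving out 1 array at a time gave -0.073 to 0.047 for Kcnip2 and -0.249 to 0.088 for Kcna5 in the apex, -0.09 to 0.34 for the Kcnj2 difference, -0.04 to 0.24 for the outflow ratio of Kcnip2 over Kcnd2 and 1.0 to 1.53 for the apex ratio of Kcne1 over Kcnq1. Without the dimmest 40% Kcne1 and Kcnj2 have no value, the difference has none with only the compared groups, and Kcne1 over Kcnq1 has no next brightest pair. The causes were not tested. Kcne1 and Kcnj2 lay below the median signal of every array.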
